A study of Mus musculus with 6 samples.

Results

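Nuclear genes of respiratory chain complexes II to V were examined in infarcted mouse myocardium. They were chosen by gene symbol, taking Cox followed by a digit and symbols that begin with Uqcr, Atp5 or with Sdh followed by a to f. This gave 59 of the 16199 gene symbols in the table, of which 58 had a mean value of at least 1 and were tested. The 59 were 4 subunits of complex II, 8 of complex III, 16 of complex IV, 17 of complex V and 14 assembly or accessory factors. Messenger RNA was sequenced in 3 samples labelled ITIH5 knockdown and 3 labelled wild type. All 6 had the left anterior descending coronary branch ligated and were collected 7 days after infarction. Itih5 encodes a secreted heavy chain that binds hyaluronan, and the study asked how it acts on fibroblasts, macrophages and remodelling after infarction. The sources used here do not give the knockdown method, strain, sex or age. Whether the 3 samples of each group are separate mice is not stated, so each p-value measures the spread among libraries, and that spread may be technical.

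The respiratory chain sits in the inner mitochondrial membrane. Complex II passes electrons from succinate to ubiquinone, complex III passes them on to cytochrome c, and complex IV, cytochrome c oxidase, hands them to oxygen. Complex III and complex IV pump protons, and complex V, the ATP synthase, uses the gradient to make ATP. Heart muscle is among the tissues richest in these complexes. Cytochrome c oxidase carries 3 small subunits that have a heart and skeletal muscle isoform, encoded by Cox6a2, Cox7a1 and Cox8b, besides a widely expressed isoform, encoded by Cox6a1, Cox7a2 and Cox8a.

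Values are on a length-corrected scale close to TPM, and the number of reads behind them is unknown. Log2 differences are labelled knockdown minus wild type on the scale of log2(value + 1), and the threshold is an adjusted p of 0.05. Itih5 itself was at 18.4, 10.5 and 19.96 in the libraries labelled knockdown, against 9.73, 13.1 and 17.2 in wild type (log2 difference 0.26, SE 0.27, limma adjusted p = 0.645). Its mean was not lower in the libraries labelled knockdown, and the 95% interval of the difference, -0.39 to 0.90, included both directions. The transcript thus does not bear out the label, and every direction below refers to the labels. The library labelled knockdown replicate 1 stood apart. It had the highest sum of the 16 cardiomyocyte markers, 29555, where the other 5 libraries had 14115 and 8490 (replicates 2 and 3 labelled knockdown) and 10032, 9937 and 8863 (wild type). All 16 cardiomyocyte markers were highest in that library. Its sum of 10 macrophage markers was the lowest, 3962, against 8504 to 11287 in wild type. Replicates 2 and 3 labelled knockdown, at 7887 and 6721, were also below every wild-type library for that sum. Its low values were also of another kind. A step was taken as the median of a library's values between 0.5 and 1.4. Of the values above 0 and below 5 steps, 55.9% lay within 0.05 of a step of a whole multiple in that library, against 80.3% to 100% in the other 5 libraries. Below 0.5 of a step lay 1089 of its values, against 0 in the others. In bulk tissue, more cells of a type and more RNA per cell cannot be told apart. Group medians below are therefore also given without that library.

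Most of the genes were highest in the library labelled knockdown replicate 1, and no gene passed the test. Of the 58 tested, 44 (75.9%) had their highest value in that library, where 25.8% of all 14025 genes tested did, and 1 had its lowest (28.2% of all genes). Their values there exceeded 1.5 times the wild-type mean in 36 cases (62.1%), against 13.3% of all genes. With limma and Benjamini-Hochberg adjustment over all genes, 0 members were higher and 0 were lower, as for all genes (0% called in either direction). At an unadjusted p under 0.05, 3 members were higher (5.17%) and 0 lower, where 8.29% of all genes were higher and 6.55% lower. The groups did not overlap for 6 members, all higher in the libraries labelled knockdown (10.3%), against 12.6% of all genes higher and 9.88% lower. Both shares are close to or below the background. For each of the 6 members without overlap, the gap between the groups was smaller than the SD of either group. The mean difference was positive for 52 of 58 members (89.7%), against 50.8% of all genes, and negative for 6, against 49.2%. The members had a median log2 difference of 0.31, against 0.00461 over all genes. Without the library labelled knockdown replicate 1, the median was 0.07, 40 of 58 members were positive (69%, against 50.4% of all genes), and 0 members were higher at an unadjusted p under 0.05, against 6.58% of all genes. Without the library labelled knockdown replicate 3, 24 members were higher at that unadjusted p (41.4%), against 9.71% of all genes, and the median was 0.46.

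**Figure D1:**
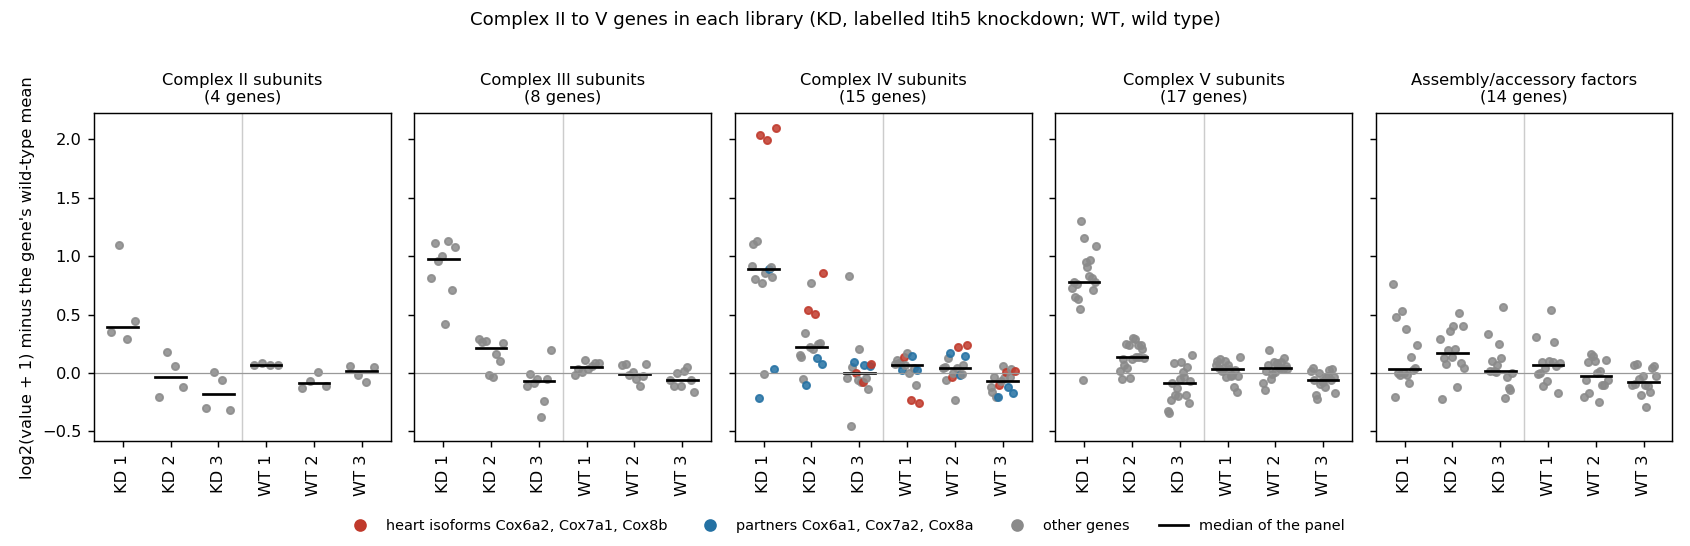
Each point is 1 gene in 1 library, as log2(value + 1) minus that gene's wild-type mean (y axis), by library (x axis; KD, labelled Itih5 knockdown; WT, wild type) and by complex; black bars are medians over the genes of a panel. In KD 1 the subunits of complexes III, IV and V lie mostly near 1, the 3 heart isoforms in red near 2, and the assembly and accessory factors spread around 0.

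The heart isoforms of cytochrome c oxidase were the members with the largest values in the library labelled knockdown replicate 1 relative to wild type. Cox6a2, on the minus strand of chromosome 7 (chr7:128205435-128206387, mm10), was at 1383, 487 and 334 in the libraries labelled knockdown, against 369, 327 and 312 in wild type. Cox7a1 (chr7:30184144-30186078, plus strand) was at 569.97, 203 and 135 in the libraries labelled knockdown, against 121, 166 and 143 in wild type. Cox8b (chr7:140898945-140900446, minus strand) was at 689.6, 291 and 169.7 in the libraries labelled knockdown, against 134, 189.8 and 162 in wild type. Replicate 1 was thus 4.12, 3.97 and 4.26 times the wild-type mean for Cox6a2, Cox7a1 and Cox8b, replicate 2 lay above all wild-type values for each of the 3 genes, and replicate 3 lay within the wild-type range. Among the other 41 structural subunits tested, the highest such ratio for replicate 1 was 2.48. The log2 differences were 0.86 (SE 0.47, limma adjusted p = 0.399) for Cox6a2, 0.81 (SE 0.48, limma adjusted p = 0.431) for Cox7a1 and 1.012 (SE 0.46, limma adjusted p = 0.351) for Cox8b. Without replicate 1 they were 0.27, 0.21 and 0.47, and the groups overlapped for all 3 genes in the full data.

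The widely expressed partners did not share 1 pattern. Cox6a1 (chr5:115345642-115348981, minus strand) was at 370.3, 399.8 and 457 in the libraries labelled knockdown, against 438, 484 and 373 in wild type, so that replicate 1 held the lowest value of the 6. Cox8a (chr19:7215153-7217616, minus strand) was at 535, 552 and 543 in the libraries labelled knockdown, against 531, 578 and 463 in wild type, and its 3 values labelled knockdown lay inside the wild-type range. Cox7a2 (chr9:79755361-79759878, minus strand) was at 695, 408 and 391 in the libraries labelled knockdown, against 412, 368 and 343 in wild type, with replicate 1 at 1.86 times the wild-type mean. Their log2 differences were -0.07 (SE 0.14) for Cox6a1, 0.06 (SE 0.12) for Cox8a and 0.36 (SE 0.23) for Cox7a2, at limma adjusted p-values of 0.814, 0.829 and 0.449. On the scale that sets every library to the same sum, Cox8a was at -0.085. By construction that scale shifts log2 differences, by -0.144 where values are well above the pseudocount, so genes near 0 change sign on it.

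The ratio of heart isoform to partner within each library gives an isoform balance that library scaling does not change. The ratio of Cox6a2 to Cox6a1 was 3.74, 1.22 and 0.731 in the libraries labelled knockdown, against 0.844, 0.675 and 0.837 in wild type. For Cox8b to Cox8a it was 1.29, 0.527 and 0.313 in the libraries labelled knockdown, against 0.252, 0.329 and 0.351 in wild type. For Cox7a1 to Cox7a2 it was 0.821, 0.497 and 0.344 in the libraries labelled knockdown, against 0.294, 0.452 and 0.418 in wild type. The balance was most towards the heart isoform in replicate 1 labelled knockdown for all 3 pairs, replicate 2 also exceeded all wild-type libraries, and replicate 3 did not. In log2(value + 1), the mean ratios of Cox6a2 to Cox6a1 were 0.58 ± 1.20 in the libraries labelled knockdown and -0.36 ± 0.18 in wild type (SD, n = 3 each; exact two-sided permutation test, p = 0.3). For Cox8b to Cox8a the means were -0.74 ± 1.03 in the libraries labelled knockdown and -1.70 ± 0.25 in wild type (SD, n = 3 each; exact permutation test, p = 0.3), and for Cox7a1 to Cox7a2 they were -0.94 ± 0.63 in the libraries labelled knockdown and -1.38 ± 0.33 in wild type (SD, n = 3 each; exact permutation test, p = 0.4). The smallest p that 3 against 3 libraries allow is 0.1. Without replicate 1 labelled knockdown the differences in log2 ratio were 0.27, 0.40 and 0.12 for the Cox6a2, Cox8b and Cox7a1 pairs, against 0.93, 0.95 and 0.44 with it.

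**Figure D2:**
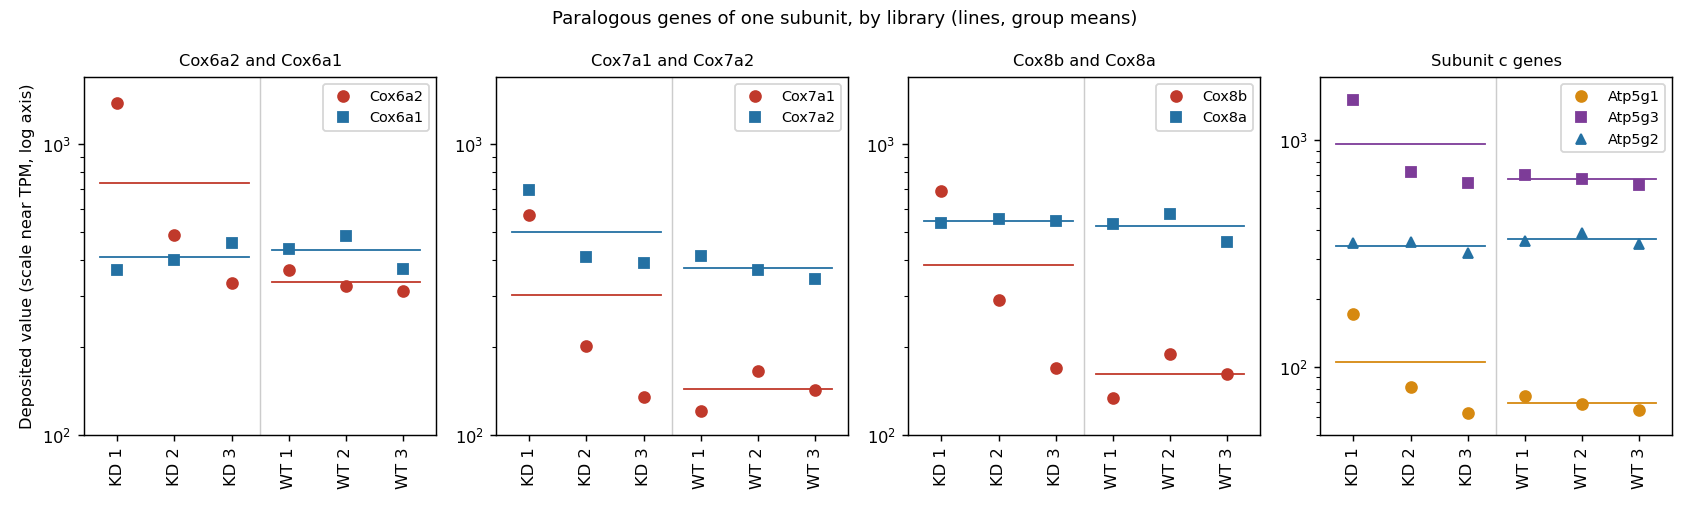
Deposited values (y axis, log scale, near TPM) of paralogous subunit genes in the 6 libraries (x axis; KD, labelled Itih5 knockdown; WT, wild type), with group means as lines. Cox6a2 and Cox8b pass their partners only in KD 1 (1383 against 370.3, and 689.6 against 535) and, for Cox6a2, in KD 2 (487 against 399.8), and Atp5g2 is near 350 in KD 1 while Atp5g3 reaches 1501.

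The isoform genes also differ in the sequence around their start sites. Windows of 300 bases were taken from RefSeq on GRCm38.p6, running from 250 bases before the start to 50 bases after it, 5′ to 3′ on the gene's strand. They are shown because these pairs carry the isoform contrast. Capitals mark matches, on either strand, to any of 6 motifs. These were TATAAA (the TATA box), AAGGTCA (bound by estrogen-related receptors), the NRF1 palindrome of 10 bases, CCGGAAG (bound by ETS factors such as GABPA), the MEF2 core of 10 bases and CAGCTG (an E-box).
Cox7a1 (chr7:30183921-30184220, plus strand): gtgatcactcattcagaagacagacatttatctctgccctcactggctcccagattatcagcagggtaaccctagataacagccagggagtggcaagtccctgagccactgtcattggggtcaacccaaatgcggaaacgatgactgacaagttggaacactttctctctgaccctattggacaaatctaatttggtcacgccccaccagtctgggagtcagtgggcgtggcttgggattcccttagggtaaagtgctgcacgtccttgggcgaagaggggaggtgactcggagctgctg
Cox8b (chr7:140900397-140900696, minus strand): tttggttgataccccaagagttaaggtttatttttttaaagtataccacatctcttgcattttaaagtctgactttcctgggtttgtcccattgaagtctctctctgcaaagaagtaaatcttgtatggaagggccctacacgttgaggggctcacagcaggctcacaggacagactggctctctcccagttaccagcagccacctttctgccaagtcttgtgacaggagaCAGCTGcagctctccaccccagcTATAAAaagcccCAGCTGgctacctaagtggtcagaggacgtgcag
Cox6a1 (chr5:115348909-115349208, minus strand): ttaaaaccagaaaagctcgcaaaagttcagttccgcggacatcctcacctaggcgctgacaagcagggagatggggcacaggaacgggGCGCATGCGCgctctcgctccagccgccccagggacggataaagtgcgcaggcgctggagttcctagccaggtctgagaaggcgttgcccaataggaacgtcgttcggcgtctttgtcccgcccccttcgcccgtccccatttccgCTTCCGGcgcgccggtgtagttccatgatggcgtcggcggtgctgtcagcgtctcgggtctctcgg
Cox7a2 (chr9:79759804-79760103, minus strand): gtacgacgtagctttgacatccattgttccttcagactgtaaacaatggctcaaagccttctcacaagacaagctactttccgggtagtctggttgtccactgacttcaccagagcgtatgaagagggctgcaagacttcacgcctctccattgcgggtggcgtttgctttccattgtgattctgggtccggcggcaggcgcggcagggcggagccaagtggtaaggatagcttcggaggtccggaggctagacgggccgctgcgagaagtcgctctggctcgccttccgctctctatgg
Cox8a (chr19:7217567-7217866, minus strand): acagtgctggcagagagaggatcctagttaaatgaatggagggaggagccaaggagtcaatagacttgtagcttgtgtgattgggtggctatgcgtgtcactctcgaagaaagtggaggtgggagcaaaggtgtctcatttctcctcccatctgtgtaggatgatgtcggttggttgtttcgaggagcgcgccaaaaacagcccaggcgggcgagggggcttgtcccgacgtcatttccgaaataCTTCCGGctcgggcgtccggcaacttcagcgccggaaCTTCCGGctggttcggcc

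The windows of the heart isoforms held fewer CpG dinucleotides, 2 for Cox8b and 7 for Cox7a1, than those of the partners, 32 for Cox6a1, 20 for Cox7a2 and 19 for Cox8a. The median was 20 over the 46 member genes with a window and 7 over all 32851 windows. In Cox8b the capitals are a TATAAA and 2 copies of CAGCTG, motifs held by 13.6% and 16.3% of all windows. Counted from the annotated start, the TATAAA begins at base 5, after the start, and the copies of CAGCTG at -19 and 17. In Cox6a1 the capitals are an NRF1 palindrome and a CCGGAAG on the other strand, and in Cox8a 2 copies of CCGGAAG on the other strand. Those of Cox6a1 begin at -162 and -16, and those of Cox8a at -5 and 33. Over all windows, 0.971% held the NRF1 palindrome and 8.86% held CCGGAAG, and among the 46 member windows 4 (8.7%) and 20 (43.5%) did. AAGGTCA was in 5 member windows (10.9%, against 4.72% of all) and the MEF2 core in 1 (2.17%, against 3.69%). None of the 6 motifs was found in the windows of Cox7a1 or Cox7a2. These matches are descriptions of sequence and were not tested against expression. Cox6a2 is among the members without a window.

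The remaining isoform genes of cytochrome c oxidase were low. Cox4i2, the lung isoform of the largest nuclear subunit, was at 59.3, 29.8 and 48.9 in the libraries labelled knockdown, against 29.2, 28.0 and 24.0 in wild type, without overlap by a gap smaller than the spread in either group. Its log2 difference of 0.69 (SE 0.24, limma adjusted p = 0.301) had the smallest p of all members. It was high in replicates 1 and 3 labelled knockdown, the libraries in which the sum of 10 endothelial markers was also high, at 1739 and 1236, against 757 in replicate 2 and 855 to 879 in wild type; the part of endothelial RNA in this was not tested. Its widely expressed counterpart Cox4i1, the most abundant of all members, was at 2043, 1201 and 1050 in the libraries labelled knockdown, against 1141, 1110 and 992 in wild type (log2 difference 0.35, SE 0.25). The ratio of Cox4i2 to Cox4i1 overlapped, at 0.0290, 0.0248 and 0.0466 in the libraries labelled knockdown, against 0.0256, 0.0252 and 0.0242 in wild type. Cox6b2, the testis isoform, was at 15.3, 27.1 and 17.96 in the libraries labelled knockdown, against 17.6, 13.03 and 16.1 in wild type, so its highest value was in replicate 2. Cox6b1, its widely expressed partner, was at 1165, 795 and 656 in the libraries labelled knockdown, against 717, 682 and 651 in wild type. Cox7b2, an isoform of testis, was listed at 1.14 in replicate 1 labelled knockdown and 0.905 in wild-type replicate 3 and at 0 in the other libraries, and it was the 1 member not tested. Its partner Cox7b was at 677, 429 and 349 in the libraries labelled knockdown, against 370.1, 359 and 352 in wild type. Cox8c was not analysed here.

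Of the other complex IV subunits, Cox5b, a zinc-binding subunit, was at 859, 497 and 406 in the libraries labelled knockdown, against 413, 428 and 338 in wild type (log2 difference 0.51, SE 0.27). Cox6c and Cox7c had log2 differences of 0.33 and 0.32. Cox5a, which pairs with the subunit encoded by Cox4i1, was far less abundant, at 107, 58.6 and 43.9 in the libraries labelled knockdown, against 64.5, 58.3 and 59.2 in wild type, with replicate 1 the highest and replicate 3 the lowest of the 6. Over the 15 complex IV subunits tested the median log2 difference was 0.35, and 0.10 without replicate 1 labelled knockdown. None of the 15 passed the test, 12 were highest in replicate 1 and 1, Cox6a1, was lowest there.

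In complex II, 1 of the 4 genes exceeded 1.5 times the wild-type mean in replicate 1 labelled knockdown. Sdhb, the iron-sulfur subunit, was at 460.0, 243 and 216 in the libraries labelled knockdown, against 227, 205 and 211 in wild type, which put replicate 1 at 2.15 times the wild-type mean. Sdha, the flavoprotein subunit that oxidises succinate, was at 195, 133 and 125 in the libraries labelled knockdown, against 161, 139.9 and 159.6 in wild type. The membrane anchor gene Sdhc was at 118, 100.2 and 91.8 in the libraries labelled knockdown, against 100.6, 96.7 and 90.9 in wild type, and the other anchor gene Sdhd at 248.7, 167 and 146 in the libraries labelled knockdown, against 191, 168 and 188 in wild type. Replicate 1 was the highest for all 4, by 1.27, 1.23 and 1.36 times the wild-type mean for Sdha, Sdhc and Sdhd, whereas replicates 2 and 3 labelled knockdown were both below all wild-type libraries for Sdha and Sdhd. The log2 differences were 0.43 (SE 0.27) for Sdhb, -0.05 (SE 0.18) for Sdha, 0.10 (SE 0.12) for Sdhc and 0.00284 (SE 0.20) for Sdhd, with limma adjusted p-values of 0.449, 0.897, 0.68 and 0.994. Without replicate 1 they were 0.10, -0.25, -0.00142 and -0.22. On the scale of equal sums, with that shift, they were -0.14 for Sdhd and -0.045 for Sdhc.

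All 8 complex III subunits were highest in replicate 1 labelled knockdown, 7 of them at more than 1.5 times the wild-type mean. Uqcrq, a small subunit next to cytochrome b, was at 465, 262 and 250.5 in the libraries labelled knockdown, against 232, 231 and 195 in wild type, without overlap (log2 difference 0.51, SE 0.24, limma adjusted p = 0.354). Uqcrh, the hinge subunit that lies near cytochrome c1 and the most abundant of the 8, was at 986, 644 and 579.8 in the libraries labelled knockdown, against 638, 593 and 576 in wild type, and overlapped. Uqcr11, a small subunit, was at 694, 385 and 319 in the libraries labelled knockdown, against 328, 338 and 296 in wild type (log2 difference 0.46, SE 0.27). Uqcrb, a small subunit that binds ubiquinone, was at 768, 478 and 371 in the libraries labelled knockdown, against 397, 391 and 395 in wild type (log2 difference 0.38, SE 0.25). Uqcr10, another small subunit, was at 752, 523 and 394 in the libraries labelled knockdown, against 422, 448 and 409.9 in wild type (log2 difference 0.33, SE 0.23). For these 3 genes replicate 3 labelled knockdown lay inside or below the wild-type range, so the groups overlapped. The Rieske iron-sulfur protein gene Uqcrfs1 had a log2 difference of 0.35, the core protein gene Uqcrc1 0.31 and the other core protein gene Uqcrc2 0.00350. The median of the 8 was 0.34, and 0.06 without replicate 1 labelled knockdown.

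Of the 17 complex V subunits, 16 were highest in replicate 1 labelled knockdown and 15 exceeded 1.5 times the wild-type mean there. Atp5b, the catalytic beta subunit and the most abundant of the complex, was at 1651, 926 and 756 in the libraries labelled knockdown, against 1030.5, 867 and 992 in wild type (log2 difference 0.13, SE 0.28). Replicate 1 was the highest of the 6 and replicate 3 the lowest, and the difference was -0.20 without replicate 1 and -0.015 on the scale of equal sums. Atp5h, subunit d of the peripheral stalk, was at 1184, 750.3 and 653 in the libraries labelled knockdown, against 624, 649 and 563 in wild type, without overlap by a gap smaller than the spread in either group (log2 difference 0.45, SE 0.23, limma adjusted p = 0.374). Atp5o, which encodes the stalk protein that confers oligomycin sensitivity, was at 1017, 523 and 532 in the libraries labelled knockdown, against 525, 489 and 423 in wild type. Atp5j, coupling factor 6 of the stalk, was at 651, 425 and 348 in the libraries labelled knockdown, against 341, 359 and 339 in wild type. Atp5e, the epsilon subunit of the rotor, was at 301, 230.2 and 206 in the libraries labelled knockdown, against 196, 223 and 166 in wild type. Their log2 differences were 0.46 (SE 0.27), 0.41 (SE 0.22) and 0.32 (SE 0.17), and the groups overlapped for each. Over the complex the median was 0.31, and 0.03 without replicate 1.

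The ring of subunit c in complex V is encoded by 3 genes that give the same mature protein. These genes were picked after their values were seen. Atp5g3 (chr2:73908447-73911326, minus strand) was at 1501, 728 and 649.7 in the libraries labelled knockdown, against 702, 676 and 637 in wild type. Atp5g1 (chr11:96068852-96075670, minus strand) was at 171, 81.7 and 62.9 in the libraries labelled knockdown, against 74.2, 68.5 and 64.3 in wild type. Atp5g2 (chr15:102662864-102672352, minus strand) was at 352, 354 and 319 in the libraries labelled knockdown, against 358, 391 and 350.0 in wild type. Replicate 1 was 2.23 and 2.48 times the wild-type mean for Atp5g3 and Atp5g1 and 0.960 times for Atp5g2. Atp5g2 was, with Cox6a1, Cox8a and Cox6b2, 1 of the 4 structural subunits below 1.1 times the wild-type mean in that library. The ratio of Atp5g3 to Atp5g2 was 4.27, 2.05 and 2.03 in the libraries labelled knockdown, against 1.96, 1.73 and 1.82 in wild type, and did not overlap. No test was made of these ratios.

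**Figure D3:**
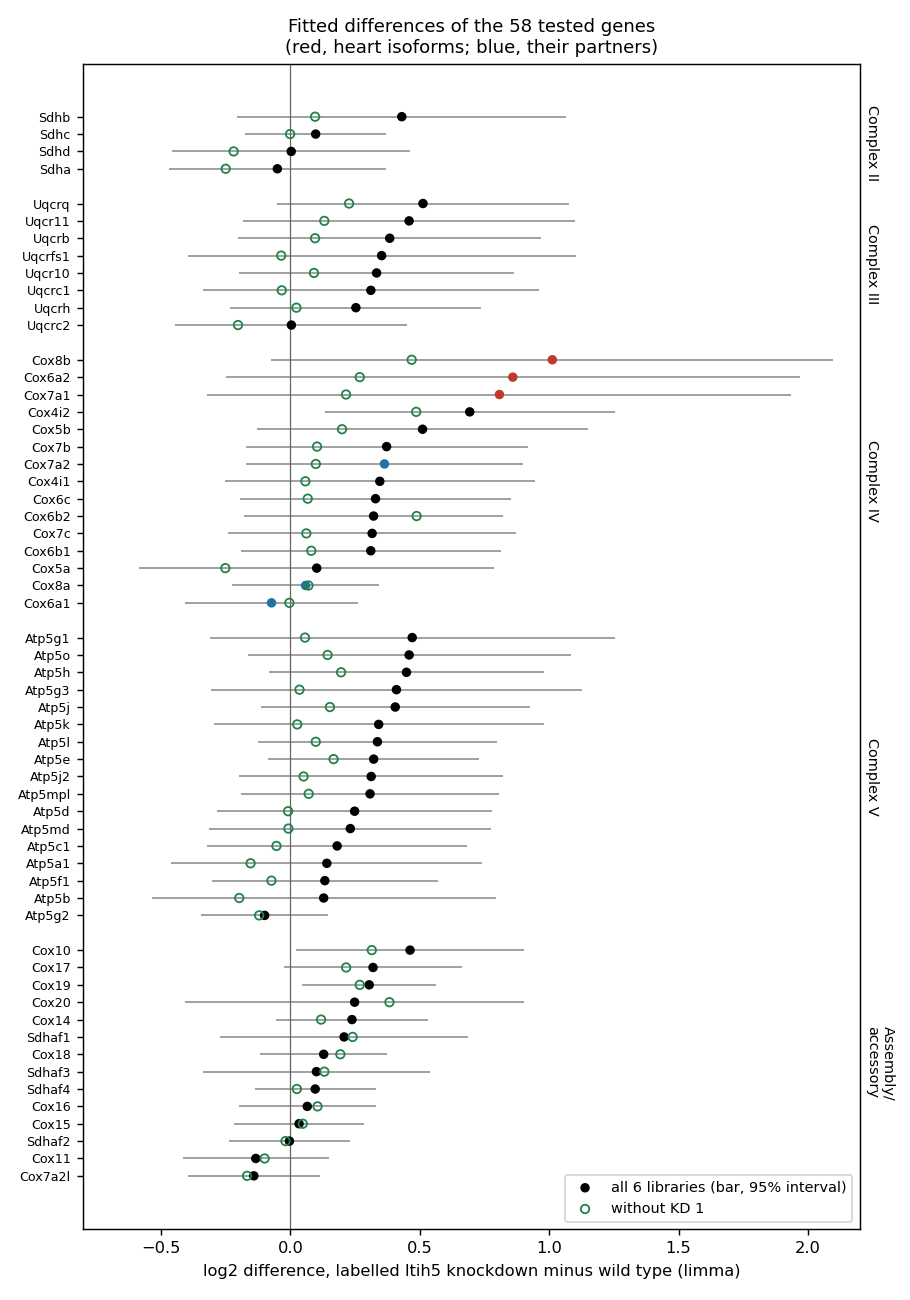
Fitted log2 differences, labelled Itih5 knockdown minus wild type (x axis), of the 58 tested genes grouped by complex (y axis), with 95% intervals from limma as bars and, as open circles, the values without the library labelled knockdown replicate 1 (KD 1). The 3 heart isoforms in red have the largest values (0.81 to 1.012) and wide intervals that include 0, and most open circles lie nearer to 0.

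The assembly and accessory factors had smaller differences in that library. Of the 14, 4 were highest in replicate 1 labelled knockdown and 1, Cox10, exceeded 1.5 times the wild-type mean there. The median log2 difference was 0.11, and 0.12 without replicate 1. Cox19, a copper-pathway factor of the intermembrane space, was at 41.6, 42.4 and 34.9 in the libraries labelled knockdown, against 34.2, 31.9 and 29.5 in wild type, without overlap (log2 difference 0.30, SE 0.11, limma adjusted p = 0.308). Cox10, which makes heme O for cytochrome c oxidase, was at 13.7, 9.62 and 9.98 in the libraries labelled knockdown, against 9.78, 6.51 and 7.09 in wild type (log2 difference 0.46, SE 0.19, limma adjusted p = 0.324). Cox17, the copper chaperone, was at 56.5, 50.1 and 40.9 in the libraries labelled knockdown, against 40.0, 43.2 and 34.0 in wild type. Cox14, a translation-coupled assembly factor, was at 73.8, 57.8 and 56.9 in the libraries labelled knockdown, against 52.7, 56.3 and 49.4 in wild type, without overlap by a gap smaller than the spread in either group. Cox7a2l, which joins complexes III and IV into supercomplexes and resembles Cox7a2 in sequence, was at 413, 405 and 378 in the libraries labelled knockdown, against 469.8, 444 and 407 in wild type (log2 difference -0.14, SE 0.11). The rest, Cox11, Cox15, Cox16, Cox18, Cox20 and the complex II factors Sdhaf1 to Sdhaf4, ran from -0.13 to 0.25 and overlapped. Cox20, Sdhaf1 and Sdhaf3 had means of 2.79, 3.45 and 3.60, only a few steps of 0.889 to 1.163. On the scale of equal sums the median of the 14 factors was -0.00895.

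Summed over all 45 structural subunits, the genes made up 2.31% of the library sum in replicate 1 labelled knockdown, 1.69% in replicate 2 and 1.38% in replicate 3, against 1.52%, 1.57% and 1.53% in wild type. With the mitochondrially encoded genes left out of the library sum, the shares were 3.44%, 1.98% and 1.73% in the libraries labelled knockdown, against 1.77%, 1.77% and 1.72% in wild type, so replicate 3 had the lowest share only when those genes were counted. Of the 44 tested subunits, 40 were above all wild-type libraries in replicate 1 labelled knockdown, 29 in replicate 2 and 6 in replicate 3, and 20 were below all of them in replicate 3. The same shares over all genes were not computed, so these counts cannot be set against a background. The heart isoforms took 9.85%, 6.04% and 4.63% of the subunit sum in the libraries labelled knockdown, against 4.19%, 4.64% and 4.48% in wild type.

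Set against the cardiomyocyte markers, the summed heart isoforms came to 8.94%, 6.95% and 7.52% of the cardiomyocyte marker sum in the libraries labelled knockdown, against 6.22%, 6.87% and 6.97% in wild type. The other structural subunits summed to 0.819, 1.08 and 1.55 times the cardiomyocyte marker sum in the libraries labelled knockdown, against 1.42, 1.41 and 1.49 times in wild type, lowest where the markers were highest. A low ratio there follows by arithmetic for any list that rises less than the marker sum. The 3 partners came to 5.41%, 9.64% and 16.4% of that sum in the libraries labelled knockdown, against 13.8%, 14.4% and 13.3% in wild type. With the centred cardiomyocyte score added to the model, the median log2 difference of the 58 members was -0.00421, and at an unadjusted p under 0.05, 0 members were higher, against 5.63% of all genes, and 4 lower (6.9%), against 2.52% of all genes.

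Cox7a1, Cox8b and Cox6a2 are also expressed in skeletal muscle, and the first pair in brown fat. The sum of 7 skeletal muscle markers in the table was 1932, 576 and 286 in the libraries labelled knockdown, against 297, 263 and 506 in wild type, and most of it was Acta1 (1770, 439 and 175 in the libraries labelled knockdown, against 213, 150.0 and 418 in wild type), which heart also expresses. The fast skeletal troponin genes Tnni2 (5.996, 13.6 and 8.98 in the libraries labelled knockdown, against 7.80, 9.41 and 7.14 in wild type) and Tnnt3 (9.50, 21.3 and 18.96 in the libraries labelled knockdown, against 12.7, 12.1 and 7.93) were not high in replicate 1, Tnni2 being lowest there and Tnnt3 inside the wild-type range. Myl1, a fast skeletal and atrial myosin light chain, was highest there, at 140.5, 94.4 and 73.9 in the libraries labelled knockdown, against 59.5, 84.6 and 67.1 in wild type. Mylpf and Pvalb were below 5 in every library, Actn3 was listed at 0 in 4 libraries, and the other 7 markers of that list were not analysed here. Ucp1, which defines brown fat, was listed at 0 in 4 libraries, at 0.0119 in replicate 1 labelled knockdown and at 0.923 in wild-type replicate 3. Cidea, a lipid droplet gene of brown fat, was highest in replicate 1, at 29.5, 14.4 and 7.98 in the libraries labelled knockdown, against 13.7, 10.3 and 11.5 in wild type. Adipoq, which defines fat cells, was at 0.453, 0.827 and 84.8 in the libraries labelled knockdown, against 29.1, 91.3 and 45.5 in wild type. Over all 10 fat markers the mean centred log2 value was -1.96, -2.11 and 1.42 in the libraries labelled knockdown, against 0.36, 1.42 and 0.88 in wild type. Their sum was 1067, 244 and 2050 in the libraries labelled knockdown, against 851, 1753 and 1014 in wild type, of which Fabp4, which endothelial cells also express, made 1032 in replicate 1. The part of skeletal muscle and fat RNA in these results was not tested.

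Related genes were read from lists. Of 34 further genes of complexes II to V in the table, among them 4 Sdhaf members counted above, 0 passed the test. The groups did not overlap for 3 that were higher and 1 that was lower, against 12.6% and 9.88% of all genes. The median log2 difference was 0.03, and -0.00264 without replicate 1 labelled knockdown. In that library, 4 of the 34 exceeded 1.5 times the wild-type mean, against 13.3% of all genes. Cyc1, which encodes cytochrome c1 of complex III, was at 297, 137 and 129 in the libraries labelled knockdown, against 150.5, 129 and 118 in wild type, and Ndufa4, a subunit of complex IV despite its name, was at 554, 286 and 233 in the libraries labelled knockdown, against 279, 245 and 251 in wild type. Of 18 genes of pyruvate oxidation and the citric acid cycle, 17 were highest in replicate 1 labelled knockdown, against 25.8% of all genes. Of the 18, 0 passed the test or escaped overlap, and the median was 0.21, and -0.04 without that library. Of 16 regulators of mitochondrial biogenesis, 14 were tested and 0 passed. The groups did not overlap for 4, all higher, against 12.6% of all genes higher. In replicate 1 labelled knockdown, 2 of the 14 exceeded 1.5 times the wild-type mean, against 13.3% of all genes. The median was 0.09, and 0.03 without that library. Ppargc1a, the coactivator PGC-1 alpha, was at 6.76, 3.85 and 2.00 in the libraries labelled knockdown, against 1.95, 2.83 and 1.71 in wild type, within a few steps of the scale. The estrogen-related receptor gene Esrra was at 54.1, 39.5 and 34.9 in the libraries labelled knockdown, against 36.1, 37.6 and 35.0 in wild type. The groups overlapped for both Ppargc1a and Esrra.

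The 6 subunits of complexes III to V encoded in mitochondrial DNA followed another order of libraries than the nuclear ones. Their mean centred log2 value was 1.87, -0.31 and 0.70 in the libraries labelled knockdown, against -0.21, -0.84 and -1.21 in wild type, whereas the nuclear structural subunits had 0.69, 0.01 and -0.22 in the libraries labelled knockdown, against -0.13, -0.14 and -0.20 in wild type. Replicate 3 labelled knockdown was thus the second highest for the mitochondrial genes. For the nuclear ones it was the lowest by a small margin, at -0.2225 against -0.2023 in wild-type replicate 3. With mitochondrially encoded genes left out of the library sum, its nuclear share was not the lowest (1.73%, against 1.72% in wild-type replicate 3). The median log2 difference of the 6 was 1.70, and 1.04 without replicate 1 labelled knockdown. The ratio of their summed values, mitochondrial over nuclear, was 7.94, 4.88 and 8.52 in the libraries labelled knockdown, against 5.28, 4.22 and 3.96 in wild type. The poly(A) selection named in the protocols captures both kinds of transcript, and the difference was not tested.

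**Figure D4:**
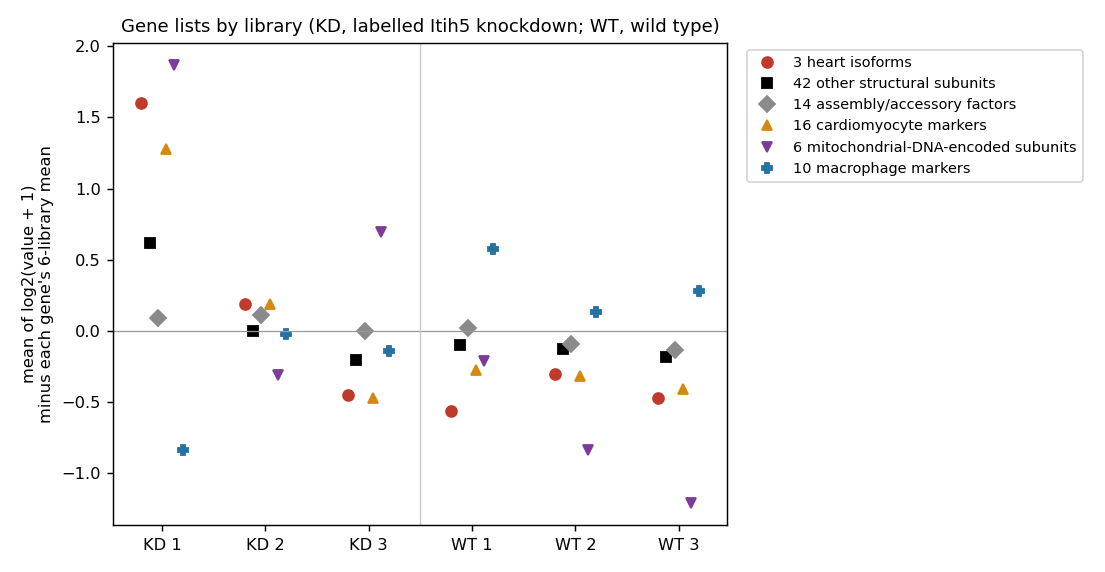
Mean over the genes of each list of log2(value + 1) minus the gene's 6-library mean (y axis) in each library (x axis; KD, labelled Itih5 knockdown; WT, wild type). In KD 1 the heart isoforms (1.60), cardiomyocyte markers (1.28) and mitochondrial-DNA-encoded subunits (1.87) are highest, the other structural subunits reach 0.62, the assembly factors 0.09, and the macrophage markers are at -0.84.

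Transcripts nearly identical to processed copies may share reads with them. Of the 58 members whose transcripts could be searched in GENCODE M21, 13 had between 1 and 9 pseudogene copies of at least 95% identity, 30 in all, with Atp5l (9), Atp5h (4) and Uqcrb (3) having the most, and none of these copies was among the rows analysed. How such reads were counted is not given, so the levels of these 13 are uncertain; they include Cox7b, Cox6c, Uqcr11, Atp5g1, Atp5j and Atp5o. Exons of 22 members overlap another gene, 4 of them on the same strand. Cox6a2 overlaps Itgad and Cox4i1 overlaps Emc8, both on the opposite strand, and whether counting used strand is not given.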

How the data were processed

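Per the labels, poly(A)-enriched RNA libraries of infarcted myocardium were sequenced, 3 labelled ITIH5 knockdown and 3 wild type; the protocols name a pair of library kits without assigning them. Per the submitters' processing notes, mm10 was used; the aligner, quantifier and annotation are not stated. The deposited values are an adjusted score: the file is named TPM, but the deposited columns sum to between 901563 and 1159657 and low values cluster at multiples of a step of 0.889 to 1.163, least so in the library labelled knockdown replicate 1, so no count model was used, depth is unknown, and the limma test planned for TPM was kept. Divided by the step of its library, each column sum came to between 996826 and 1013982.

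Of 16205 rows, 6 with a repeated symbol were left out, keeping the highest mean. Values were analysed as log2(value + 1) for 14025 genes with a mean of at least 1, so fold changes understate those of low genes. Groups were compared with limma 3.58.1 in R 4.3.3 (intensity trend, Benjamini-Hochberg at 0.05, no covariate). Isoform ratios had exact permutation tests. Same-numbered libraries were not paired. Copies were searched with blastn 2.17.0, and promoter windows come from RefSeq, GRCm38.p6. Coordinates come from GENCODE M21, which held 57 of the 59 symbols at a single locus. Alternatives were another pseudocount, filter, scaling or variance model, a cardiomyocyte covariate, the replicate block and leaving out each library.

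Genes given in every library are the isoform genes, the complex II subunits and, in every other class, the highest mean and the 4 smallest p-values. The Atp5g genes and the other members named were added after their values were seen. Members and lists were chosen with earlier results of these data known.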

Additional observations from a re-analysis of the deposited data

How the results depend on the processing

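No member and no named gene passed the adjusted threshold under any alternative. Counts moved most. Genes called lower were 0 to 13 when single libraries were left out. Members higher at an unadjusted p under 0.05, 3 in the analysis reported, were 0 to 24 when single libraries were left out (0 without replicate 1 labelled knockdown, 24 without replicate 3, where 6.58% and 9.71% of all genes were called), 1 with libraries scaled to equal sums (3.25% of all genes) and 0 with the cardiomyocyte covariate (5.63%). Members lower were 0 to 1 when single libraries were left out, where 2.38% to 8.82% of all genes were lower. The 1 was found without replicate 1 labelled knockdown (3.9% of all genes). With the covariate, 4 members were lower (6.9%, against 2.52% of all genes). Members higher without overlap, 6 as reported, were 6 to 31 when single libraries were left out (15.9% and 20% of all genes in those 2 fits), 3 with equal sums (5.92% of all genes) or median-of-ratios scaling (11.9%), and 11 with equal sums after leaving out mitochondrially encoded genes (20.1%). Equal sums shift log2 differences by construction, by -0.144 where values are well above the pseudocount, and moved the median of all genes to -0.13 and that of the 58 members to 0.17, of complex II to -0.09 and of the assembly factors to -0.00895. With the cardiomyocyte covariate the medians were -0.00421 for all members, -0.086 for complex V, -0.17 for complex II and -0.03 for complex III. The cause of the shifts under the covariate was not tested.

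With the replicate block, 8 members were higher at an unadjusted p under 0.05 (13.8%, against 7.41% of all genes). Same-numbered libraries shared only a number. The correlations of their deviations from the group means over genes were 0.0559, 0.0608 and 0.143. By these, 5 of the 6 libraries correlated best with their own number, but replicate 2 labelled knockdown reached 0.0595 with wild-type replicate 1. Deviations within a group depend on each other, so these small correlations do not establish a pairing, and the design gives none.

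Of 385 values of named genes under alternatives that kept all libraries, 16 changed sign. On the scale of equal sums these were Cox8a (-0.085), Sdhc (-0.045), Sdhd (-0.14) and Atp5b (-0.015), and with median-of-ratios scaling Sdhd (-0.012). With the cardiomyocyte covariate they were Cox6a1 (0.028), Cox4i1 (-0.034), Cox6b1 (-0.00911), Sdhc (-0.043), Sdhd (-0.29), Uqcrh (-0.049), Uqcrb (-0.014), Uqcr10 (-0.017), Atp5b (-0.31), Atp5g1 (-0.086) and Atp5g3 (-0.069). When single libraries were left out, the log2 difference ran from -0.20 to 0.36 for Atp5b, from -0.17 to 0.013 for Cox6a1, from -0.028 to 0.13 for Cox8a, from -0.25 to 0.072 for Sdha, from -0.00142 to 0.18 for Sdhc and from -0.22 to 0.16 for Sdhd. The number of libraries and the unknown depth limit the precision.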
